A study of Mus musculus with 9 samples.

Results

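A CD49b knockout line of mouse pancreatic cancer cells differed from its wild-type counterpart mostly in the same direction in culture and in the tumours that the lines formed, with the same sign for 960 of 1055 genes called in both. For 746 of 10660 genes the knockout effect itself differed between the settings, and these genes are described here. What was tested is the knockout effect in tumours minus the knockout effect in culture, on the log2 scale, for every gene of the count tables. The genes described are those at 5 CPM (counts scaled per library to a common total) or more, as a group mean, in at least 1 culture group, which keeps the account to genes that the cancer cells themselves expressed on plastic. Of 49671 genes, 10672 met that level and 10660 of them were tested in culture, in tumours and for the difference. The genes nearest to the level were Ovca2 at 4.992 CPM and Ralgps1 at 4.997 CPM just outside, and Dcp1b at 5.007 CPM and Nr4a2 at 5.013 CPM just inside.

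The 9 libraries of poly(A) RNA form 4 groups. WT cultures (2 libraries) are the line KPCWT, with no knockout, and KO cultures (2) are the line KPC49bKO, the same kind of pancreatic cancer cell with a knockout of CD49b, both grown in DMEM with fetal bovine serum and antibiotics and taken shortly before confluence. WT tumours (3) and KO tumours (2) are growths of these lines under the skin of the flank of syngeneic C57BL/6 mice, and each was dissociated with enzymes before the RNA was made. The sources used here give no age or sex of the mice, and do not say whether the KO line is 1 clone or how the gene was edited. The labels call the samples biological replicates and do not say that each culture or tumour came from its own passage or animal beyond that. The KO tumour libraries are called 1 and 3 here, as in the deposited table; since the labels use 1 and 2 for these tumours, the second was matched to its group only. The batch tag of the labels is the same as the setting, so culture or tumour and batch cannot be told apart in the difference, while each knockout effect lies within 1 batch. A knockout line differs from its parent by its selection and passage as well as by the edited gene, and these cannot be told apart here.

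The integrin subunit CD49b, encoded by Itga2, pairs with the product of Itgb1 into a receptor for collagen and laminin on epithelial cells. Cells on plastic in serum meet little fibrillar collagen, whereas a tumour offers a collagen matrix, host stroma, immune cells and uneven supplies of oxygen and nutrients.

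Total counts ran from 17738774 to 21247023 in cultures and from 16032912 to 19562695 in tumours. Itga2 (chr13:114833081-114932100, minus strand) had 169 and 134 CPM in WT and 98.1 and 104 CPM in KO cultures. In tumours Itga2 had 118, 142 and 138 CPM in WT and 44.7 and 63.9 CPM in KO tumours. Every KO library was below every WT library of its setting, but the transcript was present in all of them, and counts over the whole gene do not show which part the edit touched. Its log2 fold change was -0.59 ± 0.16 (SE) in culture (edgeR quasi-likelihood test, Benjamini-Hochberg adjusted p = 0.0208) and -1.29 ± 0.19 in tumours (adjusted p = 0.00739), and the difference of -0.70 ± 0.26 was not called (edgeR adjusted p = 0.153). For Itgb1 and for Itga1, which encodes another collagen-binding alpha subunit, the differences of -0.19 ± 0.19 and -0.25 ± 0.26 were not called either (edgeR adjusted p = 0.659 and 0.667). The 9 markers of pancreatic cancer epithelium summed to 12400 to 13300 CPM in WT cultures, 13100 to 13900 in KO cultures, 5390 to 6570 in WT tumours and 8770 to 11500 in KO tumours. The 12 fibroblast markers summed to at most 2.61 CPM in cultures, to 1220 to 3200 CPM in WT tumours and to 446 to 702 CPM in KO tumours. In these bulk tumours fewer cells of a type and less RNA per cell cannot be told apart, and the part of the cell mixture in the differences below was not tested.

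Over the 10660 genes, 2750 were called in culture (25.8%, 13.4% higher and 12.4% lower) and 2373 in tumours (22.3%, 13% higher and 9.26% lower), each at an adjusted p of at most 0.05 over all genes tested in that comparison. The 1055 genes called in both settings had the same sign in 960 cases and opposite signs in 95, and the difference was called for each of those 95. For 6975 genes (65.4%) the fold changes had the same sign whether called or not, and across genes, which are not independent replicates, Pearson's r was 0.589 and Spearman's rho 0.414. The difference itself was called for 746 of the 10660 genes (7%), with the KO effect higher in tumours for 517 (4.85%) and lower for 229 (2.15%). Over all 16793 genes tested it was called for 694 upward (4.13%) and 254 downward (1.51%, 5.65% in all, edgeR). Among all genes tested in a setting, 1532 were higher (11.3%) and 2022 lower (14.9%) in KO cultures, and 1622 higher (9.98%) and 1699 lower (10.5%) in KO tumours. Of these calls 43.1% in culture and 48.8% in tumours were higher in KO. Scaling by library totals alone made these shares 30.9% and 36.4%, with a shift of the median tumour fold change from 0.08 to -0.03, and left 75.5% of the called differences upward against 73.2%.

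The calls sort the genes into classes. The knockout effect reversed in 67 genes that were lower in KO cultures and higher in KO tumours (0.629% of the 10660) and in 28 genes that were higher in KO cultures and lower in KO tumours (0.263%). It was called in tumours and not in culture, with a called difference, for 147 genes that were higher (1.38%) and 97 that were lower (0.91%). It was called in culture and not in tumours, again with a called difference, for 77 higher (0.722%) and 219 lower genes (2.05%). It was kept, with the same sign in both settings and no called difference, for 488 higher (4.58%) and 374 lower genes (3.51%). Another 44 genes had the same sign and a larger effect in tumours (26 higher, 0.244%, and 18 lower, 0.169%) and 54 the same sign and a smaller effect (2 higher, 0.0188%, and 52 lower, 0.488%). In the remaining 9065 genes (85%) the calls formed none of these patterns, which does not show that their effects were equal: the median half-width of the 95% interval of their difference was 0.57 on the log2 scale.

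**Figure D1:**
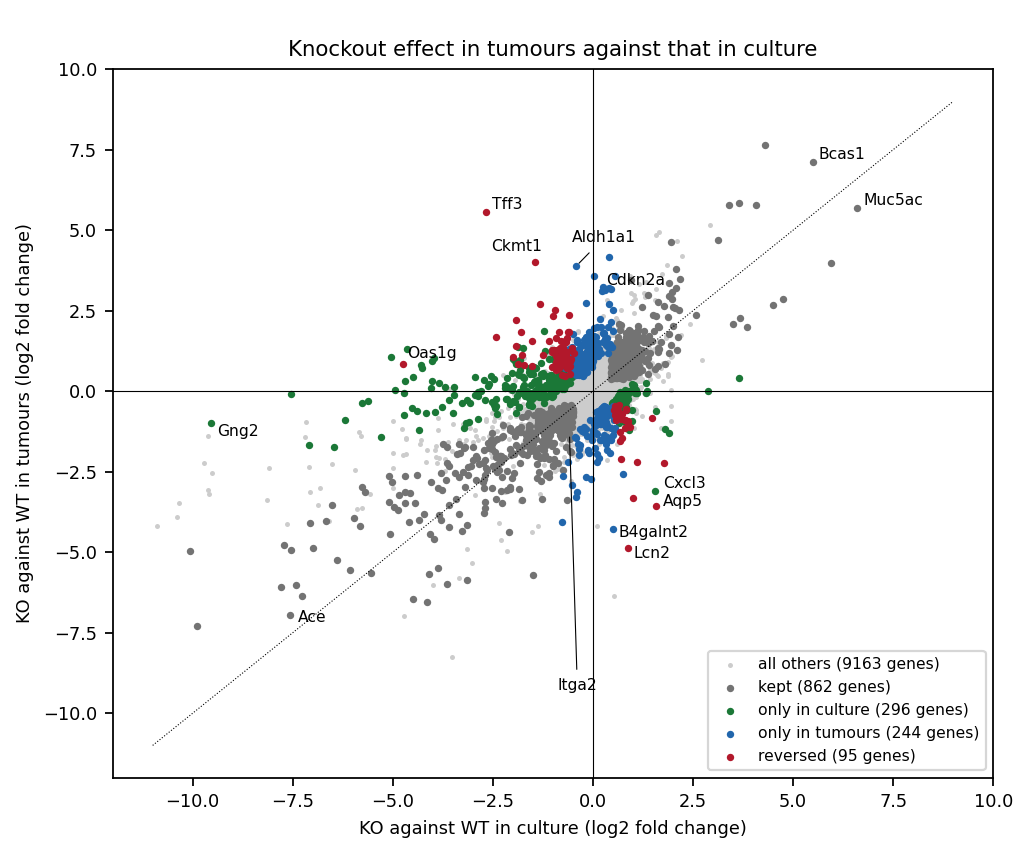
Knockout effect (log2 fold change, KO against WT) in tumours on the vertical axis against that in culture on the horizontal axis, 1 point for each of the 10660 genes, coloured by class, with a dotted line where both effects are equal. The 95 reversed genes lie to the upper left and lower right of the zero lines, the 488 higher and 374 lower kept genes near the dotted line, and the 244 genes called only in tumours near the vertical zero line.

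The reversed genes that were lower in KO cultures and higher in KO tumours had a median log2 fold change of -0.84 in culture and 1.11 in tumours, and their differences ran from 1.12 to 8.25. Among them were Tff3 and Ctse from the list of gastric and intestinal genes, Oas1g and Irf7 from the interferon list and 5 transcripts of the mitochondrial genome. Tff3, a trefoil peptide of mucus-secreting cells (chr17:31125306-31129646, minus strand), had 13.9 and 25.2 CPM in WT and 2.54 and 3.6 CPM in KO cultures. In tumours Tff3 had 0.24, 0.796 and 0.257 CPM in WT and 36.9 and 4.09 CPM in KO tumours, so it was under 1 CPM in every WT tumour, and KO tumour 1 stood far above KO tumour 3. Its difference was 8.25 ± 1.18 (SE, edgeR adjusted p = 0.00362). Ckmt1, a creatine kinase of mitochondria (chr2:121357714-121363737, plus strand), had 7.82 and 7.65 CPM in WT and 2.71 and 2.98 CPM in KO cultures. In tumours Ckmt1 had 12, 12.5 and 8.69 CPM in WT and 292 and 63.7 CPM in KO tumours, with both KO tumours above every other library. The fold changes were -1.44 ± 0.26 in culture and 4.01 ± 0.59 in tumours (edgeR adjusted p of the difference = 0.00354). Pdk4, a kinase that holds back pyruvate dehydrogenase (chr6:5483351-5496309, minus strand), had 5.4 and 5.7 CPM in WT and 0.791 and 1.32 CPM in KO cultures. In tumours Pdk4 had 4.08, 3.78 and 2.65 CPM in WT and 10.4 and 12.2 CPM in KO tumours, again without overlap in either setting (difference 4.10 ± 0.47, edgeR adjusted p = 0.00144).

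Slc4a11 (a membrane transporter), Kif5c (a kinesin motor) and Ces2c (a carboxylesterase) followed the same course. Slc4a11 fell from 15.6 and 10.9 CPM in WT to 3.84 and 3.05 in KO cultures and rose from 6.63, 9.3 and 6.93 in WT to 51 and 19.9 in KO tumours. Their differences were 4.15 ± 0.54, 4.03 ± 0.60 and 3.46 ± 0.55, in this order (edgeR adjusted p = 0.00284, 0.00404 and 0.00555). KO tumour 1 was the higher of the KO tumours for Tff3, Ckmt1, Slc4a11, Kif5c and Ces2c, and without it Ces2c left the class. Tff3 left the class by limma-voom, at 20 CPM and without WT tumour 1, and Kif5c with library totals and without WT culture 1, among others. Of the 22 alternatives, Kif5c stayed in the class in 17, Tff3 in 19, Ckmt1, Pdk4 and Ces2c in 20 each and Slc4a11 in 21. Leaving out WT tumour 2 or WT tumour 1 reduced the class from 67 to 24 or 26 genes, of which 23 and 25 were among the 67, and leaving out KO tumour 3 raised it to 106 genes, 60 of them shared. Without WT culture 2 or KO culture 1 the class held 33 or 32 genes, 30 and 29 of them shared.

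The opposite reversal was seen in 28 genes, with a median of 0.76 in culture and -0.90 in tumours. The 8 with the largest differences include the channels Aqp5 and Cftr and the secreted proteins Lcn2, Ccn1 and Stc2. Lcn2, a lipocalin that binds bacterial iron carriers (chr2:32384633-32388252, minus strand), had 20.1 and 16.5 CPM in WT and 36.8 and 29.6 CPM in KO cultures. In tumours Lcn2 had 5.72, 25 and 44.4 CPM in WT and 0.879 and 0.808 CPM in KO tumours, with the WT tumours widely spread and both KO tumours below all of them. The difference was -5.75 ± 1.00 (edgeR adjusted p = 0.00853) and was not called without WT culture 2 or by limma-voom (highest adjusted p 0.0726). Aqp5, a water channel of secretory epithelium (chr15:99590782-99594829, plus strand), had 11.9 and 11.5 CPM in WT and 34.5 and 35.9 CPM in KO cultures. In tumours Aqp5 had 1.3, 0.845 and 2.05 CPM in WT and 0.117 and 0.108 CPM in KO tumours, so it was low in every tumour and lowest in the KO tumours. That gave Aqp5 a difference of -5.16 ± 0.60 (edgeR adjusted p = 0.00156), which rests on very few reads in the KO tumours. Ptprd, a receptor-type tyrosine phosphatase (chr4:75941238-78211961, minus strand), had 1.84 and 1.75 CPM in WT and 6.67 and 5.61 CPM in KO cultures. The WT tumours, at 33.8, 44.3 and 35.6 CPM, stood far above the KO tumours at 6.27 and 9.7 CPM, which were close to the KO cultures. Its difference was -4.02 ± 0.36 (edgeR adjusted p = 0.000762). Cftr, the chloride channel of pancreatic ducts (chr6:18170687-18322768, plus strand), had 5.91 and 6.55 CPM in WT and 12.3 and 14.3 CPM in KO cultures. In tumours Cftr had 159.8, 233 and 175 CPM in WT and 53.7 and 28.6 CPM in KO tumours. Cftr was thus higher in tumours than in cultures for both lines, and more so for WT, with a difference of -3.29 ± 0.40 (edgeR adjusted p = 0.00183). Levels in tumours against cultures were not tested for this or any other gene, and tumours also hold host cells.

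Ccn1, a secreted matrix-associated protein and a known target of the co-activator YAP (chr3:145646976-145649981, minus strand), had 292 and 295 CPM in WT and 495 and 443 CPM in KO cultures. In tumours Ccn1 had 85.3, 109 and 86 CPM in WT and 38.8 and 24.9 CPM in KO tumours, below culture in both lines and lower in KO. The Ccn1 difference was -2.23 ± 0.28 (edgeR adjusted p = 0.00246). Stc2 (stanniocalcin, a secreted glycoprotein), Dtna (a dystrobrevin of the membrane skeleton) and Nup210 (a nuclear pore protein) completed the 8 largest, with differences of -2.83, -4.32 and -2.30 (edgeR adjusted p = 0.00324, 0.00183 and 0.00354). Dtna stayed in the class under all 22 alternatives. Nup210 left the class without any 1 of the 3 WT tumours or without KO tumour 1, Aqp5 and Lcn2 without KO tumour 1, and Lcn2 also without KO tumour 3. Between 8 genes (without WT tumour 2) and 35 genes (without KO tumour 3) remained in the class when 1 library was left out, 8 and 21 of them among the 28. It held 11 genes without WT tumour 1, WT culture 2 or KO tumour 1, and 14 without KO culture 1.

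**Figure D2:**
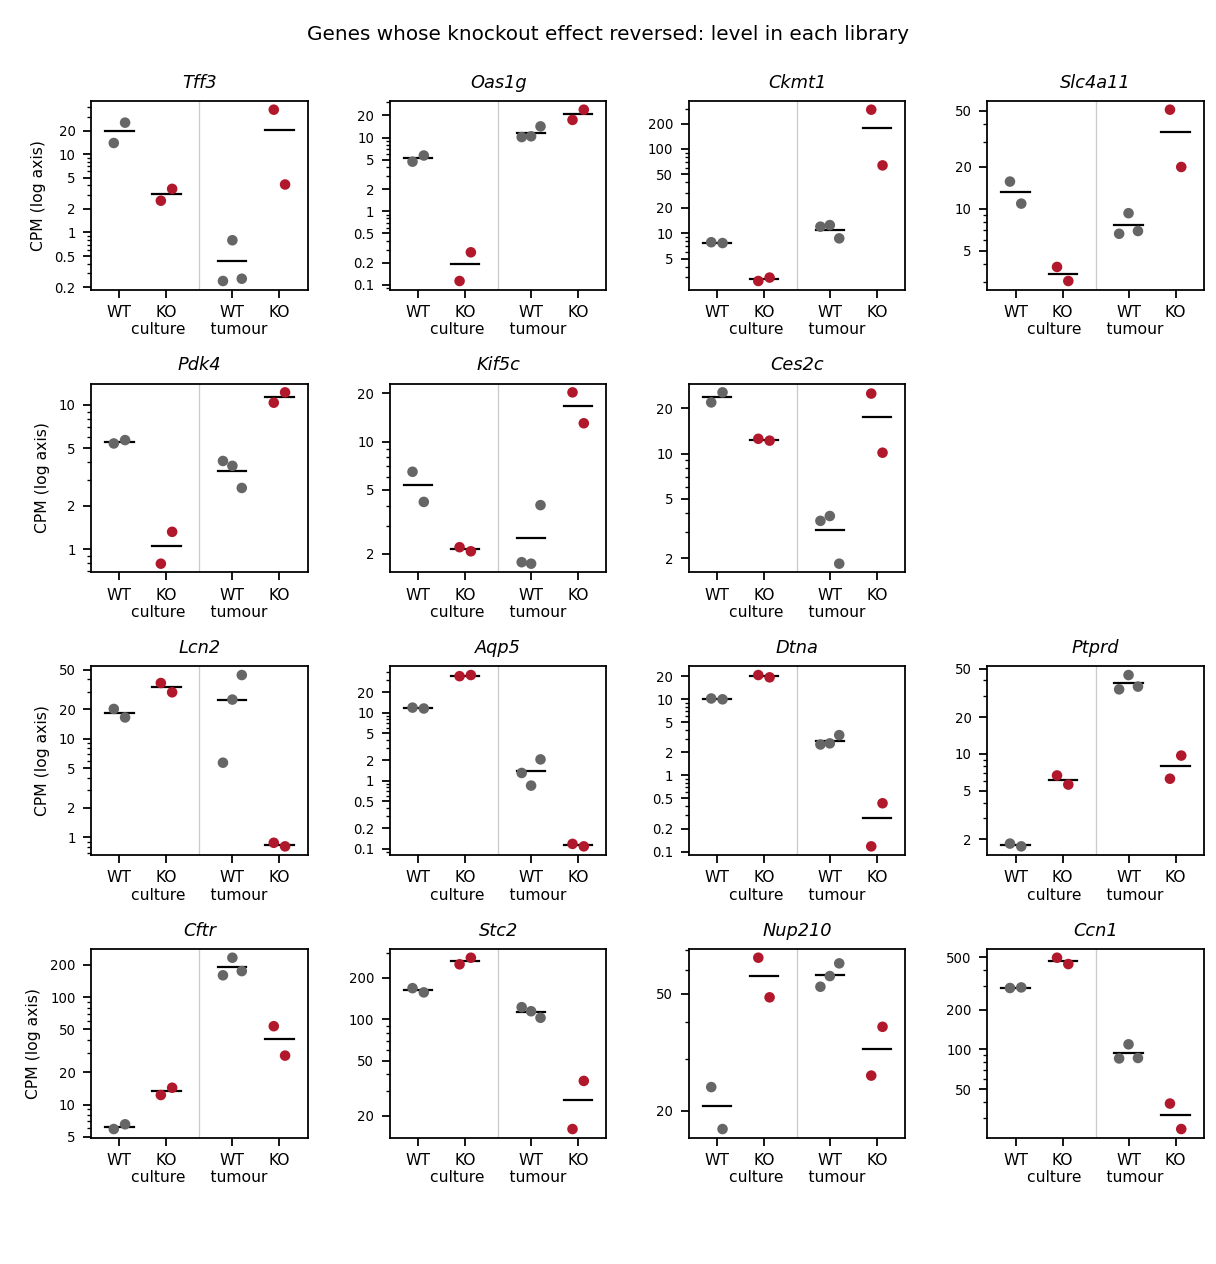
Level of 15 of the 16 reversed genes with the largest differences (8 in each direction) in each library, in CPM on a log axis, with WT in grey, KO in red and a bar at each group mean. The upper 7 genes are below WT in KO cultures and above WT in KO tumours, and the lower 8 the other way round, with no overlap between the lines in either setting.

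Among the 147 genes called as higher in KO only in tumours, the median was 1.17 in tumours and -0.16 in culture. A gene that is not called in culture is not shown to have no effect there. In culture the lines did not overlap for 82 of the 147 genes, beside 5202 of the 9065 genes in no class. The largest differences were those of Aldh1a1, Cdkn2a, Tnxb, Cdkn2b, Galntl6 and Adh7. Aldh1a1, which oxidises retinaldehyde to retinoic acid (chr19:20492715-20643465, plus strand), had 12.1 and 18.3 CPM in WT and 12.2 and 10.4 CPM in KO cultures, overlapping. In tumours Aldh1a1 had 6.44, 5.37 and 2.7 CPM in WT and 102 and 39.7 CPM in KO tumours, a fold change of 3.87 ± 0.48 against an interval of -0.95 to 0.10 in culture (edgeR adjusted p of the difference = 0.00354). Adh7, an alcohol and retinol dehydrogenase of the upper gut (chr3:138217760-138233382, plus strand), had 77.7 and 87.5 CPM in WT and 79.9 and 113 CPM in KO cultures. In tumours Adh7 had 14.9, 22.6 and 11.1 CPM in WT and 123 and 159 CPM in KO tumours. Adh7 was thus lower in WT tumours than in WT cultures, and somewhat higher in KO tumours than in KO cultures. Its difference was 2.90 ± 0.38 (edgeR adjusted p = 0.00297).

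The cell-cycle inhibitor genes Cdkn2a (chr4:89274471-89294653, minus strand) and Cdkn2b (chr4:89306299-89311039, minus strand) lie side by side on chromosome 4 and had the same pattern. Cdkn2a had 139 and 169 CPM in WT and 155 and 159 CPM in KO cultures. In tumours Cdkn2a had 3.99, 3.28 and 4.45 CPM in WT and 76.4 and 17.7 CPM in KO tumours, so WT tumours lay far below every culture and the KO tumours lay between. Cdkn2b had 80.6 and 92.5 CPM in WT and 95.9 and 111 CPM in KO cultures. In tumours Cdkn2b had 2.31, 2.59 and 3.17 CPM in WT and 42.1 and 8.89 CPM in KO tumours. Their differences were 3.56 ± 0.64 and 2.98 ± 0.68 (edgeR adjusted p = 0.00992 and 0.0292), on culture intervals of -0.32 to 0.37 and -0.10 to 0.61. KO tumour 1 stood well above KO tumour 3 for both genes. The difference of Cdkn2a lost its call when WT culture 2 or either KO culture was left out (highest adjusted p 0.0667). Cdkn2b was not called in 8 of the 22 alternatives, among them without any 1 of the 4 cultures, without WT tumour 1 or 2, and by limma-voom (highest 0.136). Tnxb, the matrix protein tenascin-X, and Galntl6, of the family that starts O-linked sugar chains, had differences of 3.02 ± 0.59 and 2.91 ± 0.31 (edgeR adjusted p = 0.0143 and 0.00114). Galntl6 was the most even of them, at 2.74, 2.64 and 2.61 CPM in WT and 18.5 and 17 in KO tumours. Tnxb lost its call on leaving out WT culture 1 or either KO culture (highest 0.0705).

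The 97 genes called as lower in KO only in tumours had a median of -1.13 there and 0.21 in culture. For 57 of the 97 the lines did not overlap in culture, beside 5202 of the 9065 genes in no class. B4galnt2, a sugar transferase that adds N-acetylgalactosamine (chr11:95865943-95914891, minus strand), had 6.99 and 4.73 CPM in WT and 5.82 and 10.8 CPM in KO cultures, overlapping. In tumours B4galnt2 had 23.1, 30.1 and 34.5 CPM in WT and 1.35 and 1.67 CPM in KO tumours. B4galnt2 was thus higher in WT tumours than in WT cultures, and lower in KO tumours than in KO cultures. Its difference was -4.76 ± 0.48 (edgeR adjusted p = 0.000926). Ptgs2, the inducible cyclooxygenase COX-2 that makes prostaglandins (chr1:150100031-150108227, plus strand), had 120.2 and 112 CPM in WT and 118 and 107 CPM in KO cultures. In tumours Ptgs2 had 13.5, 12.1 and 15.8 CPM in WT and 1.11 and 3.02 CPM in KO tumours, below culture in both lines and lowest in KO. That gave Ptgs2 a difference of -2.68 ± 0.39 (edgeR adjusted p = 0.00394), and its class did not change under any of the 22 alternatives. Ephb3, a receptor for membrane-bound ephrins and a Wnt target in the gut (chr16:21204755-21223305, plus strand), had 27.8 and 22 CPM in WT and 19.8 and 17.6 CPM in KO cultures. In tumours Ephb3 had 11.9, 14.3 and 8.35 CPM in WT and 0.937 and 1.67 CPM in KO tumours. The Ephb3 difference was -2.71 ± 0.43 (edgeR adjusted p = 0.00545). Ltbp2, which binds latent TGF-beta complexes and matrix fibres (chr12:84783212-84876532, minus strand), had 27.4 and 20.2 CPM in WT and 19.2 and 15.9 CPM in KO cultures. In tumours Ltbp2 had 41.6, 53.8 and 96.3 CPM in WT and 5.68 and 7.38 CPM in KO tumours. The Ltbp2 difference was -2.85 ± 0.48 (edgeR adjusted p = 0.00746) beside the fibroblast markers that were lower in KO tumours, and it was not called without WT culture 2 (0.0512).

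Bmp4, a secreted BMP ligand, and Cnksr2, a scaffold of Ras signalling, had differences of -3.31 ± 0.72 and -3.26 ± 0.54 (edgeR adjusted p = 0.0242 and 0.00739). The culture interval of Bmp4, 0.14 to 1.36, lies above 0 although its adjusted p of 0.067 missed the threshold (edgeR), and in WT tumours it ran from 3.21 to 10.2 CPM. Its difference was not called without any 1 of the 4 cultures, WT tumours 1 and 2 or KO tumour 1 (highest adjusted p 0.125), and it was in the class in 9 of 22 alternatives, against 12 of 22 for Cnksr2. The upward class held from 45 (without KO culture 1) to 382 genes (without KO tumour 3), with 29 and 136 of the 147 shared. The downward class held from 20 (without WT culture 2) to 203 genes (without KO tumour 3), with 16 and 75 of the 97 shared. Beside these lower genes, 5 of 10 fibroblast markers tested in tumours were called as lower in KO and 0 as higher (10.5% and 9.98% over all genes tested in tumours). The part of fibroblasts in the class was not tested.

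**Figure D3:**
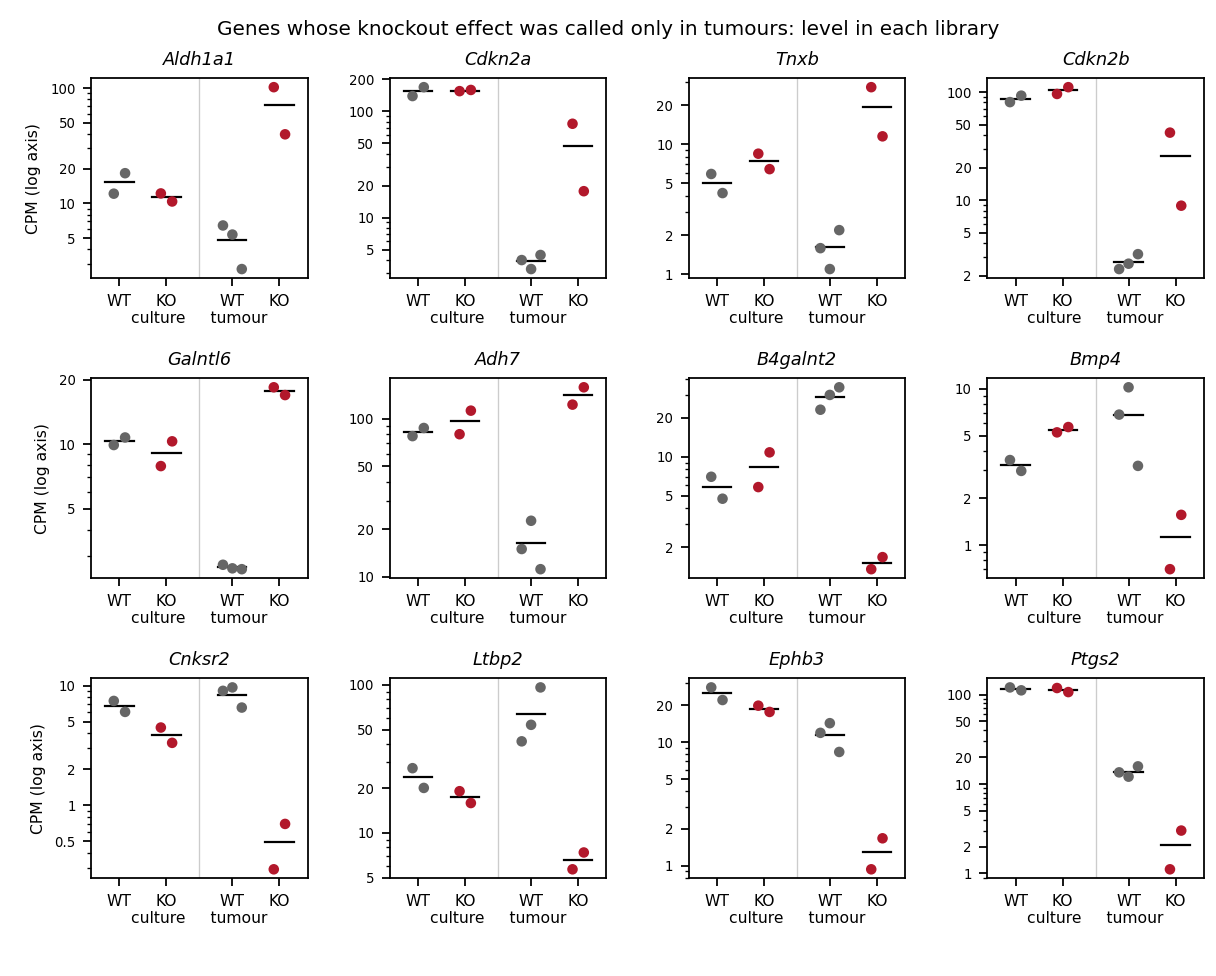
Level of the 12 genes with the largest differences among those called only in tumours, in each library, in CPM on a log axis, with WT in grey, KO in red and a bar at each group mean. KO tumours are above all WT tumours for the first 6 genes (Aldh1a1 to Adh7) and below all of them for the other 6 (B4galnt2 to Ptgs2), while none of the 12 is called in culture.

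Of the interferon-induced genes that reached 5 CPM in a culture group, most were lower in KO cultures and 0 were lower in KO tumours. Type I interferon signals through a complex of transcription factors that includes IRF9 and binds a short response element in the promoters of antiviral genes. The type I interferon list has 26 genes, of which 15 were measured. Here and below, measured members of a list are those among the 10660 genes. Of the 15, 10 were lower in KO cultures and 0 higher, while 5 were higher in KO tumours and 0 lower. Some, such as Ifih1 and Oas1g, passed the 5 CPM level through WT cultures alone. The count of lower genes in culture therefore depends in part on that level. Counts of this and later lists stand against 12.4% lower and 13.4% higher in culture and 9.26% lower and 13% higher in tumours over the 10660 genes. The difference was called upward for 12 of 15 and downward for 0 (4.85% and 2.15% over the 10660 genes), and Oasl1 and Irf9 were among the other 3. The list's median was -2.01 in culture, 0.83 in tumours and 2.77 for the difference, beside 0.10, 0.08 and 0.01 over the 10660 genes. By class, 2 reversed (Oas1g and Irf7), 2 were called only in tumours (Stat2 and Bst2) and 8 only in culture. These members, and others below given as the few in a class, were chosen after their values were seen.

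Ifih1, the cytosolic sensor of double-stranded RNA known as MDA5, had 6.93 and 6.29 CPM in WT and 0.226 and 0.277 CPM in KO cultures. In tumours Ifih1 had 19.7, 22.6 and 22.8 CPM in WT and 26.9 and 26.5 CPM in KO tumours, so the lines lay far apart in culture, while in tumours KO was just above WT and not called (edgeR adjusted p = 0.171). The Ifih1 difference was 4.99 ± 0.34 (edgeR adjusted p = 0.000238). Oas1a and Oas1g are tandem copies on chromosome 5 of the gene for an enzyme that activates RNase L. Oas1a had 14.5 and 17.1 CPM in WT and 0.508 and 1.18 CPM in KO cultures. In tumours Oas1a had 24.3, 23 and 36.9 CPM in WT and 40.8 and 51.8 CPM in KO tumours. The Oas1a difference was 4.98 ± 0.45 (edgeR adjusted p = 0.000762). Oas1g had 4.71 and 5.7 CPM in WT and 0.113 and 0.277 CPM in KO cultures. In tumours Oas1g had 10.1, 10.4 and 14.2 CPM in WT and 17.3 and 23.9 CPM in KO tumours. The Oas1g difference was 5.57 ± 0.52 (edgeR adjusted p = 0.000762). The copies are near-identical, and the sources used here do not say how reads that match both were counted, so their split is uncertain. The tumour call of Oas1g was borderline (adjusted p = 0.0492), and it stayed in the reversed class in 13 of 22 alternatives, leaving it without WT culture 2, WT tumours 1 or 2 or KO tumour 3.

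The promoters of these 3 genes are shown because they carry the interferon response element that many of the list share. The RefSeq promoter table (GRCm38.p6, 250 bases before to 50 after each start) held 12 of the 15 members, and the element GAAA, any 2 bases, GAAA, searched on both strands with overlapping matches allowed, was in 8 of them (66.7%). It was in 3.99% of the 27025 genes with a promoter there, in 3.53% of the 8335 of the 10660 genes that had one, and in 18 of 159 genes called only in culture as lower in KO (11.3%). Each sequence reads 5′ to 3′ on the gene's strand, with matches in capitals: Oas1a chr5:120907476-120907775, minus strand; Oas1g chr5:120887564-120887863, minus strand; Ifih1 chr2:62646206-62646505, minus strand.
Oas1a: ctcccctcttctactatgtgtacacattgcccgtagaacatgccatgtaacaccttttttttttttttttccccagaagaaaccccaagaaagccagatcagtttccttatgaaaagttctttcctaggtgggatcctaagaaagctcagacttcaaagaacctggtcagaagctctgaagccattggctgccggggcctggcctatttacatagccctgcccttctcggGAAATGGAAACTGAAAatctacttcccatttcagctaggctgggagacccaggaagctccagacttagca
Oas1g: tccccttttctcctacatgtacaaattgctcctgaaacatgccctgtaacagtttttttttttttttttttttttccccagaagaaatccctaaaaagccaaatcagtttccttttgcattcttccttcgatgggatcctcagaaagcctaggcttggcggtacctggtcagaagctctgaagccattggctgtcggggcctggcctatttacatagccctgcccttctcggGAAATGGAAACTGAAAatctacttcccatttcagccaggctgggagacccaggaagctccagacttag
Ifih1: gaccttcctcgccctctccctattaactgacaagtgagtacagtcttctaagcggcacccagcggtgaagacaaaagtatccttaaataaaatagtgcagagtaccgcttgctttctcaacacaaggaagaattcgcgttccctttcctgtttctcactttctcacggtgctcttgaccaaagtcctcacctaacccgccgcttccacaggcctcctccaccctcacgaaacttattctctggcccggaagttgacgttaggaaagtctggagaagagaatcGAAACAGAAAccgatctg
Oas1a and Oas1g have the same run in capitals just before the start, and Ifih1 has its match after it.

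In the list of MHC class I presentation the calls of the difference were upward too. Of 19 members, 7 were lower in KO cultures (12.4% over the 10660 genes) and 2 higher, which is below the 13.4% of all genes. In KO tumours 5 were higher (13% over all) and 0 lower. The difference was called upward for 6 and downward for 0 (4.85% and 2.15% over all), with a median of 0.94. Psmb8, a subunit of the immunoproteasome, had 7.5 and 8.62 CPM in WT and 0.508 and 0.277 CPM in KO cultures. In tumours Psmb8 had 62.3, 69.4 and 42.2 CPM in WT and 68.1 and 137 CPM in KO tumours, where the lines overlapped. The Psmb8 difference was 5.12 ± 0.59 (edgeR adjusted p = 0.00144). Its neighbour Psmb9 had a difference of 5.02 ± 0.70 and Tapbp, which loads peptides, 1.34 ± 0.24 (edgeR adjusted p = 0.00354 and 0.00924). The call of Tapbp was lost without KO culture 2 (0.0535). The number of upward calls in this list was 2 without WT culture 2 or KO culture 2, and 4 without KO culture 1 or without WT tumour 1 or 2. In the interferon list it was 8 of 14 without WT culture 2.

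Immune cells of the host also express these genes. The 11 T cell markers summed to 10.6 to 30.3 CPM in WT and 38.4 to 88.6 CPM in KO tumours, and the 10 dendritic cell markers to 126 to 169 CPM and 132 to 456 CPM. In tumours 1 of the 11 T cell markers and 1 of the 8 dendritic cell markers tested were called as higher in KO. That is near the 9.98% of all genes tested in tumours. The 14 macrophage and monocyte markers summed to 422 to 554 CPM in WT and 410 to 593 CPM in KO tumours, and none was called by edgeR. That sum includes Cd14 and Mrc1, which the cultures also had, at 324 to 477 and 188 to 221 CPM. Cd14, a co-receptor for lipopolysaccharide, had 247, 325 and 239 CPM in WT and 182 and 190 CPM in KO tumours (edgeR adjusted p = 0.0599), with a called difference of -0.93 ± 0.23 (edgeR adjusted p = 0.0429). C1qa, a complement gene of macrophages with no count in any culture, had 31.2, 34.2 and 55.7 CPM in WT and 49.3 and 79.7 CPM in KO tumours, overlapping (edgeR adjusted p = 0.162). Its partners C1qb and C1qc, also with no count in culture, had tumour fold changes of 0.75 ± 0.32 and 0.75 ± 0.38 that were not called (edgeR adjusted p = 0.139 and 0.206). Of these 3 lists, 7 T cell, 5 dendritic cell and 7 macrophage markers had no count in any culture. Their part in the tumour effects was not tested. In culture the T cell markers summed to 6.72 to 14.2 CPM, the dendritic cell markers to 0.565 to 4.26 CPM and the macrophage markers to 541 to 686 CPM, highest in the KO cultures for the last list.

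Cholesterol synthesis was the list with the most called differences. The pathway turns acetyl-CoA into sterols and is driven by the sterol-regulated transcription factor SREBP2. Of its 23 members, 21 were lower in KO cultures and 0 in KO tumours, and 2 were higher in KO tumours. The difference was called upward for 19 and downward for 0, and 17 of them fell in the class called only in culture. The median was -1.45 in culture, 0.00 in tumours and 1.43 for the difference. Fdft1, squalene synthase, had 118 and 122 CPM in WT and 25.9 and 26.7 CPM in KO cultures. In tumours Fdft1 had 72.9, 69.8 and 90.7 CPM in WT and 89.7 and 77.3 CPM in KO tumours, with overlap. The Fdft1 difference was 2.30 ± 0.22 (edgeR adjusted p = 0.000762). Insig1, the sterol-dependent brake of SREBP processing, had 396 and 474 CPM in WT and 140.4 and 146 CPM in KO cultures. In tumours Insig1 had 120.4, 96.9 and 125 CPM in WT and 138 and 209 CPM in KO tumours, with KO above WT. Its tumour effect was not called (edgeR adjusted p = 0.081), beside a called difference of 2.21 ± 0.28 (edgeR adjusted p = 0.0023). Fdps, which makes farnesyl diphosphate, had a difference of 2.10 ± 0.26 (edgeR adjusted p = 0.00227). Tm7sf2, a sterol reductase, was the only member to reverse, and Ebp, a sterol isomerase, the only member called only in tumours, with fold changes of -1.26 and 1.13 and of -0.26 and 1.03 in culture and tumours. Hsd17b7, another enzyme of the pathway, was 1 of the 4 members with no called difference (0.62). The number of upward calls was 9 without KO culture 1, 10 without WT culture 2 and 11 without KO culture 2.

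In the RefSeq table, 15 of the 23 members had a promoter and all 15 held CCAAT on either strand, a short box bound by NF-Y, against 41.1% of the 27025 genes and 43.4% of the 10660 genes that had one. The sterol element TCAC, any base, CCAC was in 1 of the 15 (6.67%, beside 1.44% of the 27025). Insig1 (chr5:28071162-28071461, plus strand) and Hmgcs1 (chr13:119690101-119690400, plus strand), which makes HMG-CoA and had a difference of 1.48, are shown 5′ to 3′ as the brake and an early step of the pathway, with CCAAT or its reverse complement ATTGG in capitals.
Insig1: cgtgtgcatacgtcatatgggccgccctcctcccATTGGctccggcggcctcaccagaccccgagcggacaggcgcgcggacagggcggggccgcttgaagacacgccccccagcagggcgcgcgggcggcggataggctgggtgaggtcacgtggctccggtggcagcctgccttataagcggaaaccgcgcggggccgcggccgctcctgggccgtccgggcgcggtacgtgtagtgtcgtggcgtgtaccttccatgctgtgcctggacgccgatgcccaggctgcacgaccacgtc
Hmgcs1: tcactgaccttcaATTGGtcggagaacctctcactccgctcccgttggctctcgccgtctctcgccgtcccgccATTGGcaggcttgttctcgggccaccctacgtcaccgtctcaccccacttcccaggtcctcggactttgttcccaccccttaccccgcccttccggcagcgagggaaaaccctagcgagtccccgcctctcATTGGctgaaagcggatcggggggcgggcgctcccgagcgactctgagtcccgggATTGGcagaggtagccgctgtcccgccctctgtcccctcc
Hmgcs1 has 4 matches and Insig1 has 1, and a match describes the letters only. Of 14 fatty acid genes, 8 were lower in KO cultures (12.4% over the 10660 genes) and 3 in KO tumours (9.26% over all), and the difference was called upward for 2, Fads2 (1.60 ± 0.24) and Acss2 (1.61 ± 0.26), and downward for 0 (edgeR adjusted p = 0.00398 and 0.00587).

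Transcripts of the mitochondrial genome, which encode core subunits of the respiratory chain, held more reversed genes than any other list. Of 9 measured, 5 were lower in KO cultures and 0 higher, 7 were higher in KO tumours and 0 lower, and the difference was called upward for 7, 5 of them reversed. The median was -0.60 in culture, 0.80 in tumours and 1.40 for the difference. mt-Nd2, a subunit of complex I, had 1896 and 1503 CPM in WT and 949 and 883 CPM in KO cultures. In tumours mt-Nd2 had 562, 613 and 700.2 CPM in WT and 1368 and 1009 CPM in KO tumours (difference 1.82 ± 0.26, edgeR adjusted p = 0.00354). mt-Nd1 and mt-Co1 had differences of 1.76 ± 0.25 and 1.56 ± 0.26 (edgeR adjusted p = 0.00358 and 0.00791), and mt-Nd4 and mt-Nd6 also reversed. mt-Co2 and mt-Co3 had no called difference (1.25 ± 0.63 and 1.22 ± 0.64, edgeR adjusted p = 0.294 and 0.318), with the KO cultures far apart: mt-Co2 had 9.03 and 7.84 CPM in WT and 4.8 and 12.5 CPM in KO cultures. The share of all counts on the mitochondrial genome was 4.72% and 3.39% in WT cultures, 2.16% and 2.05% in KO cultures, 1.90% to 2.00% in WT tumours and 3.33% and 2.69% in KO tumours. That share also moves with RNA quality and cell handling, whose part was not tested. The nuclear genome holds copies of these genes, whose reads may have been counted either way. Upward calls numbered 4 when WT culture 1 or either KO culture was left out.

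Nuclear-encoded subunits of the respiratory chain were called mainly in tumours. Of 22 in the list, 1 was higher and 1 lower in KO cultures, while 14 were higher in KO tumours and 0 lower. The difference was called upward for 7 and downward for 0, with a median of 0.94. Cox7b, a small subunit of cytochrome oxidase, had 101 and 135 CPM in WT and 73.3 and 92.2 CPM in KO cultures. In tumours Cox7b had 24.3, 25.6 and 30.5 CPM in WT and 81.3 and 56.4 CPM in KO tumours. The Cox7b difference was 1.88 ± 0.30 (edgeR adjusted p = 0.00543). Cox6c was called only in culture, as lower in KO. Atp5o of the ATP synthase had a difference of 1.12 ± 0.27 and Cox6c one of 0.94 ± 0.20 (edgeR adjusted p = 0.0357 and 0.0239). Both calls were lost when single libraries were left out, for Cox6c without WT culture 2, KO culture 1 or WT tumour 2 (highest 0.125). Atp5o lost it on leaving out WT culture 2, either KO culture, WT tumour 1 or 2 or KO tumour 1 (highest 0.174).

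**Figure D4:**
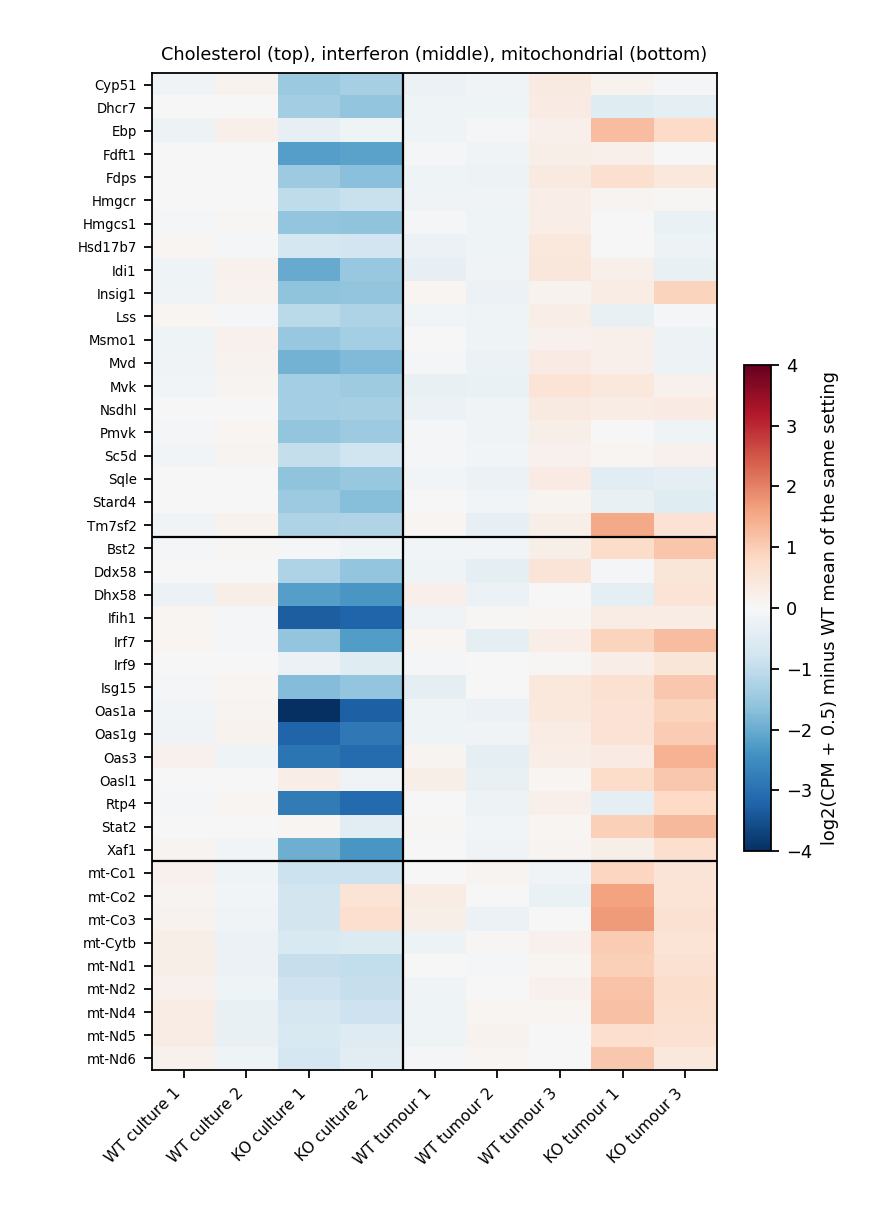
Levels of members of the cholesterol (top), interferon (middle) and mitochondrially encoded (bottom) lists in the 9 libraries, as log2(CPM + 0.5) minus the mean of the WT libraries of the same setting. KO cultures are blue in most lines of the top and middle blocks, with Oas1a, Oas1g and Ifih1 among the deepest, and KO tumours are pale at the top and red in the middle and bottom blocks.

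Among the 219 genes called only in culture as lower in KO were genes with almost no count in the KO cultures, and the class had a median of -1.53 in culture and 0.17 in tumours. Gng2, a G protein gamma subunit, had 184 counts in the WT cultures and 0 in the KO cultures, so it was at least 63.3-fold lower there (floor of 3 counts over the group). In tumours Gng2 had 13.2, 12.3 and 17.8 CPM in WT and 4.74 and 9.75 CPM in KO tumours, and its fold change of -0.99 ± 0.35 was not called (edgeR adjusted p = 0.0928). Gatm, an enzyme of creatine synthesis, had 228 counts in the WT cultures and 1 in the KO cultures (ratio 0.00425, 95% counting interval 0.000107 to 0.0239). In tumours Gatm had 5.81, 5.87 and 13.4 CPM in WT and 4.51 and 11.2 CPM in KO tumours, overlapping. Ifi47, an interferon-induced GTPase, had 6.1 and 8.75 CPM in WT and 0.169 and 0.277 CPM in KO cultures. In tumours Ifi47 had 20.4, 23.6 and 15.9 CPM in WT and 26.7 and 56 CPM in KO tumours. The Ifi47 difference was 6.10 ± 0.63 (edgeR adjusted p = 0.000981). These genes were present in KO tumours at a level that KO cultures did not reach, and for 20 of the 219 genes of the class the tumour level was over 4 times the culture level. Whether cancer or host cells gave that signal was not tested. Gng2 left the class without KO tumour 3 and Ifi47 without KO tumour 1. The class held from 78 (without KO culture 1) to 280 genes (without WT tumour 3), with 78 and 203 shared, and 83 and 102 genes without WT culture 2 and KO culture 2.

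In the other direction, 77 genes were higher in KO cultures and not called in KO tumours, with the chemokine genes Cxcl3 and Ccl20 among those with the largest differences. Cxcl3, which draws neutrophils (chr5:90786103-90789600, plus strand), had 75.2 and 88.3 CPM in WT and 228 and 249 CPM in KO cultures. In tumours Cxcl3 had 3.31, 6.17 and 23.7 CPM in WT and 0.996 and 1.56 CPM in KO tumours, below the WT tumours without overlap but with a fold change of -3.11 ± 0.93 that missed the threshold (edgeR adjusted p = 0.059). Ccl20, which draws cells with the receptor CCR6 (chr1:83116766-83119167, plus strand), had 43.2 and 55.9 CPM in WT and 187 and 183 CPM in KO cultures. In tumours Ccl20 had 1.63, 2.34 and 3.04 CPM in WT and 0.527 and 1.35 CPM in KO tumours, below every culture in both lines. The differences were -4.65 ± 0.98 and -3.20 ± 0.45 (edgeR adjusted p = 0.0208 and 0.00354), and that of Cxcl3 was not called without any 1 of the 4 cultures (highest 0.0947). Slc10a2, the bile acid transporter of the ileum, had 0.636 and 0.648 CPM in WT and 6.38 and 9.91 CPM in KO cultures. In tumours Slc10a2 had 0.528, 0.547 and 1.28 CPM in WT and 0.879 and 1.24 CPM in KO tumours. The Slc10a2 difference was -3.23 ± 0.71 (edgeR adjusted p = 0.0256). It was not called without any 1 of the 4 cultures or without KO tumour 1 (highest 0.12). The class of 77 genes shrank to 4 without WT culture 2 and to 5 without KO culture 1, and it rose to 115 without KO tumour 3.

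Differentiation genes of stomach and gut encode mucins, trefoil peptides and brush border proteins. Of 23 in the list, 11 were higher and 5 lower in KO cultures, and 16 were higher and 0 lower in KO tumours. The difference was called upward for 8 and downward for 0, with a median of 1.48. Muc1, a mucin of the cell surface, had 287 and 269 CPM in WT and 238 and 197 CPM in KO cultures. In tumours Muc1 had 264, 291 and 242 CPM in WT and 795 and 522 CPM in KO tumours. The Muc1 difference was 1.66 ± 0.27 (edgeR adjusted p = 0.00601). Vil1, villin of the brush border, had 61.8 and 57.8 CPM in WT and 27.3 and 23.1 CPM in KO cultures. In tumours Vil1 had 93.4, 98.5 and 66.8 CPM in WT and 138 and 117 CPM in KO tumours. The Vil1 difference was 1.81 ± 0.27 (edgeR adjusted p = 0.00398), and Vil1 was called only in culture, as lower in KO. Upward calls in this list numbered 5 without WT culture 2 and 4 without KO culture 1.

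In the list of epithelial junctions and keratins, 9 of 15 were higher in KO tumours and 1 lower, against 3 and 3 in culture, and the difference was called upward for 4 and downward for 0. Krt20, a keratin of differentiated gut epithelium, had 364 and 396 CPM in WT and 356 and 348 CPM in KO cultures. In tumours Krt20 had 243, 191 and 249 CPM in WT and 976 and 665 CPM in KO tumours. The Krt20 difference was 1.96 ± 0.26 (edgeR adjusted p = 0.00321). Krt19, a keratin of ducts, had 2268 and 2614 CPM in WT and 1868 and 1774 CPM in KO cultures. In tumours Krt19 had 1114, 909 and 951 CPM in WT and 2438 and 1705 CPM in KO tumours. The Krt19 difference was 1.49 ± 0.26 (edgeR adjusted p = 0.00875). Cldn7, a tight junction protein, went the other way within both settings: it had 470 counts in the WT cultures and 0 in the KO cultures, at least 162-fold lower. In tumours Cldn7 had 24.2, 18.6 and 19.5 CPM in WT and 0.761 and 1.51 CPM in KO tumours. Its difference was not called without KO culture 1 (edgeR adjusted p = 0.0613). The sum of the 9 epithelial markers given above was higher in both KO tumours than in any WT tumour, but it includes Krt19 and Muc1 themselves. Of those markers 5 were called as higher in KO tumours (Krt8, Krt18, Krt19, Msln and Muc1) and 2 as lower (Epcam and Sox9). Over all genes tested in tumours these shares were 9.98% and 10.5%. Krt7 and Cdh1 were not called in tumours. The part of epithelial content in these tumour effects was not tested.

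Targets of the antioxidant factor NRF2 were higher in KO tumours for 7 of 16 and lower for 0 (13% and 9.26% over the 10660 genes). In culture 3 were higher and 1 lower, which is near the 13.4% and 12.4% over all genes. The difference was called upward for 5 (4.85% over all). Gsta4, a glutathione transferase, had 507 and 627 CPM in WT and 622 and 763 CPM in KO cultures, overlapping. In tumours Gsta4 had 215, 209 and 216 CPM in WT and 936 and 565 CPM in KO tumours. Its difference was 1.53 ± 0.30 (edgeR adjusted p = 0.0144). Nqo1, a quinone reductase, was called only in culture, at 49 and 66.7 CPM in WT and 13.9 and 15 CPM in KO (difference 2.16 ± 0.33, edgeR adjusted p = 0.0048), and Gclm had a difference of 0.91 ± 0.19 (edgeR adjusted p = 0.022). Gsta4 was not called without WT culture 2 or KO culture 1 (highest 0.0911) and Gclm without any 1 of the 4 cultures (highest 0.0881).

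In the basement membrane list 2 of 16 had a called difference, both downward (2.15% over the 10660 genes), with a median of -0.65. Lamb2, a laminin chain, reversed: it had 40.9 and 33.5 CPM in WT and 75.7 and 54.9 CPM in KO cultures. In tumours Lamb2 had 169.9, 166 and 116 CPM in WT and 74.7 and 87.4 CPM in KO tumours. That gave Lamb2 a difference of -1.70 ± 0.30 (edgeR adjusted p = 0.00941). Lamc1, its partner chain, had 164 and 112 CPM in WT and 218 and 180.3 CPM in KO cultures. In tumours Lamc1 had 422, 419 and 385 CPM in WT and 195 and 246 CPM in KO tumours (difference -1.42 ± 0.27, edgeR adjusted p = 0.0121). Among 17 integrins and matrix receptors only Itga5, the fibronectin receptor subunit, had a called difference, -1.70 ± 0.30, with 84.3, 77.5 and 101 CPM in WT and 19.6 and 29.7 CPM in KO tumours (edgeR adjusted p = 0.00924), and 1 of 17 is near the 7% of all 10660 genes. These 3 calls were lost without WT culture 2 or KO culture 1 (highest 0.0633, 0.0726 and 0.0609). Host cells also express these genes: beside the fibroblast sums given above, the 9 endothelial markers summed to 84.2 to 193 CPM in WT and 46.5 to 90 CPM in KO tumours, with Vwf called as lower. The 8 markers of pericytes and smooth muscle summed to 100 to 181 CPM in WT and 107 to 146 CPM in KO tumours, with Des called as lower. These calls, 1 of 9 and 1 of 8 markers tested, are near the 10.5% lower among all genes tested in tumours. No count in any culture was found for 3 of the endothelial and 2 of the pericyte markers, and the part of these cells in the tumour levels of Lamb2, Lamc1 and Itga5 was not tested. Of the 19 genes of the interstitial matrix list, 5 reached 5 CPM in a culture group, Col6a1 through the WT cultures alone. Col6a1, a collagen chain already low in KO cultures at 1.24 and 1.25 CPM against 42.1 and 38.5, was the only 1 of these 5 with a called difference, 2.01 ± 0.50 (edgeR adjusted p = 0.0401). It lost the call in 9 alternatives, among them without any 1 culture or WT tumour 1 or 2 (highest 0.186). Col1a1, below the 5 CPM level, had 50 counts in the WT cultures and 1 in the KO cultures (ratio 0.0194, 95% counting interval 0.000481 to 0.113). Its tumour signal of 749, 536 and 1415 CPM in WT and 176 and 292 CPM in KO tumours is part of the fibroblast marker sums given above.

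In the YAP and TEAD list 8 of 18 were higher and 5 lower in KO cultures, and 1 was higher and 7 were lower in KO tumours, and the difference was called for 0 upward and 3 downward, with a median of -0.52. These were Ccn1, Ccn2 (-1.31 ± 0.28) and Yap1 itself (-0.83 ± 0.18, edgeR adjusted p = 0.0228 and 0.0266). Ccn2, a secreted matrix protein like Ccn1, was lower in KO in both settings, at 241 and 258 against 159 and 142 CPM in culture and 205, 286 and 225 against 69.1 and 47 CPM in tumours. Ccn2 was not called without any 1 of the 4 cultures or without WT tumour 2 (highest 0.106), and Yap1 without 7 of the 9 libraries taken in turn, all but WT tumour 3 and KO tumour 3 (highest 0.127).

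The list of NF-kB factors and cytokines had 0 upward and 3 downward calls among 23 (Lcn2, Cxcl3 and Ccl20, beside 4.85% and 2.15% over the 10660 genes), with a median of -0.63. Neutrophils also express Lcn2, and the 8 neutrophil markers summed to 6.77 to 65.5 CPM in WT and 6.21 to 16.4 CPM in KO tumours, against at most 0.907 CPM in cultures. The highest sum was that of WT tumour 3, the highest WT tumour for Lcn2 and Cxcl3 as well, and the differences of both genes were called without that library. The lowest edgeR adjusted p of the 5 neutrophil markers tested in tumours was 0.256 (S100a8), and 3 of the 8 had no count in any culture. The part of neutrophils in the tumour levels of Lcn2 and Cxcl3 was not tested. Of the early response genes, Egr1, a growth-induced transcription factor, had 18.5 and 13.8 CPM in WT and 65.2 and 47.3 CPM in KO cultures. In tumours Egr1 had 56.7, 111 and 76.6 CPM in WT and 27 and 44.9 CPM in KO tumours. The Egr1 difference was -2.98 ± 0.45 (edgeR adjusted p = 0.00442), and it was called only in culture, as was Fosl2 (-0.95 ± 0.25, edgeR adjusted p = 0.0481). Feedback genes of the ERK pathway, Etv4, Etv5 and Spry1, were called only in tumours and lower in KO, with differences of -0.95 ± 0.24, -1.12 ± 0.29 and -0.94 ± 0.24 (edgeR adjusted p = 0.0459, 0.047 and 0.0499). They are 3 of 14 in that list, against 0 upward. Those 3 and Fosl2 lay close to the threshold and lost the call in 8 or 9 of the 22 alternatives, among them without WT culture 2, KO culture 1, any 1 of the 3 WT tumours or KO tumour 1 (highest 0.204, 0.209, 0.219 and 0.215 in the order Etv4, Etv5, Spry1, Fosl2).

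Fgfr4, a receptor for fibroblast growth factors, had the largest downward difference among the genes called with the same sign in both settings and for the difference. It had 10.8 and 7.91 CPM in WT and 0.96 and 0.623 CPM in KO cultures. In tumours Fgfr4 had 62.2, 68.5 and 79.9 CPM in WT and 0.0586 and 0.377 CPM in KO tumours. Fgfr4 was thus higher in WT tumours than in WT cultures and under 1 CPM in every KO library. At so few reads a fall from KO cultures to KO tumours is not shown. The Fgfr4 difference was -4.72 ± 0.63 (edgeR adjusted p = 0.00297). Fgf1, one of its ligands, was called only in tumours and higher in KO, with 58.2, 51.9 and 42.7 CPM in WT and 121 and 112 CPM in KO tumours (difference 1.30 ± 0.24, edgeR adjusted p = 0.00983), and it was not called without KO culture 2 (0.0559). Mmp15, a membrane-bound metalloprotease, had 32.4 and 27.1 CPM in WT and 124 and 91.3 CPM in KO cultures. In tumours Mmp15 had 23.8, 25.3 and 13.1 CPM in WT and 346 and 279 CPM in KO tumours. KO was higher in both settings, and the called difference of 2.06 ± 0.37 (edgeR adjusted p = 0.00983) was lost without KO culture 2 (0.0571).

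Further list members with a called difference were Mmp14, a membrane-bound collagenase (-1.005), Lgals1, a galectin (0.96), Ldha, lactate dehydrogenase (1.08), and Gdf15, a stress-induced cytokine (-1.68). The TGF-beta ligand Tgfb3 (-2.15) and Znrf3, which removes Wnt receptors (-1.58), were called only in tumours and lower in KO. The kindlins, which activate integrins, parted: Fermt2 (4.27) had 200 counts in the WT cultures and 2 in the KO cultures (ratio 0.0097, 95% counting interval 0.00117 to 0.0355). In tumours Fermt2 had 26.3, 29.4 and 24 CPM in WT and 4.69 and 6.36 CPM in KO tumours. Fermt1 (-0.92) was called as higher in KO only in culture. Of these 8, Fermt2 and Gdf15 held their call when any 1 library was left out, and Tgfb3, Ldha, Fermt1, Mmp14, Znrf3 and Lgals1 lost it without at least WT culture 2 and KO culture 1 (highest adjusted p from 0.103 for Fermt1 to 0.2 for Lgals1).

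**Figure D5:**
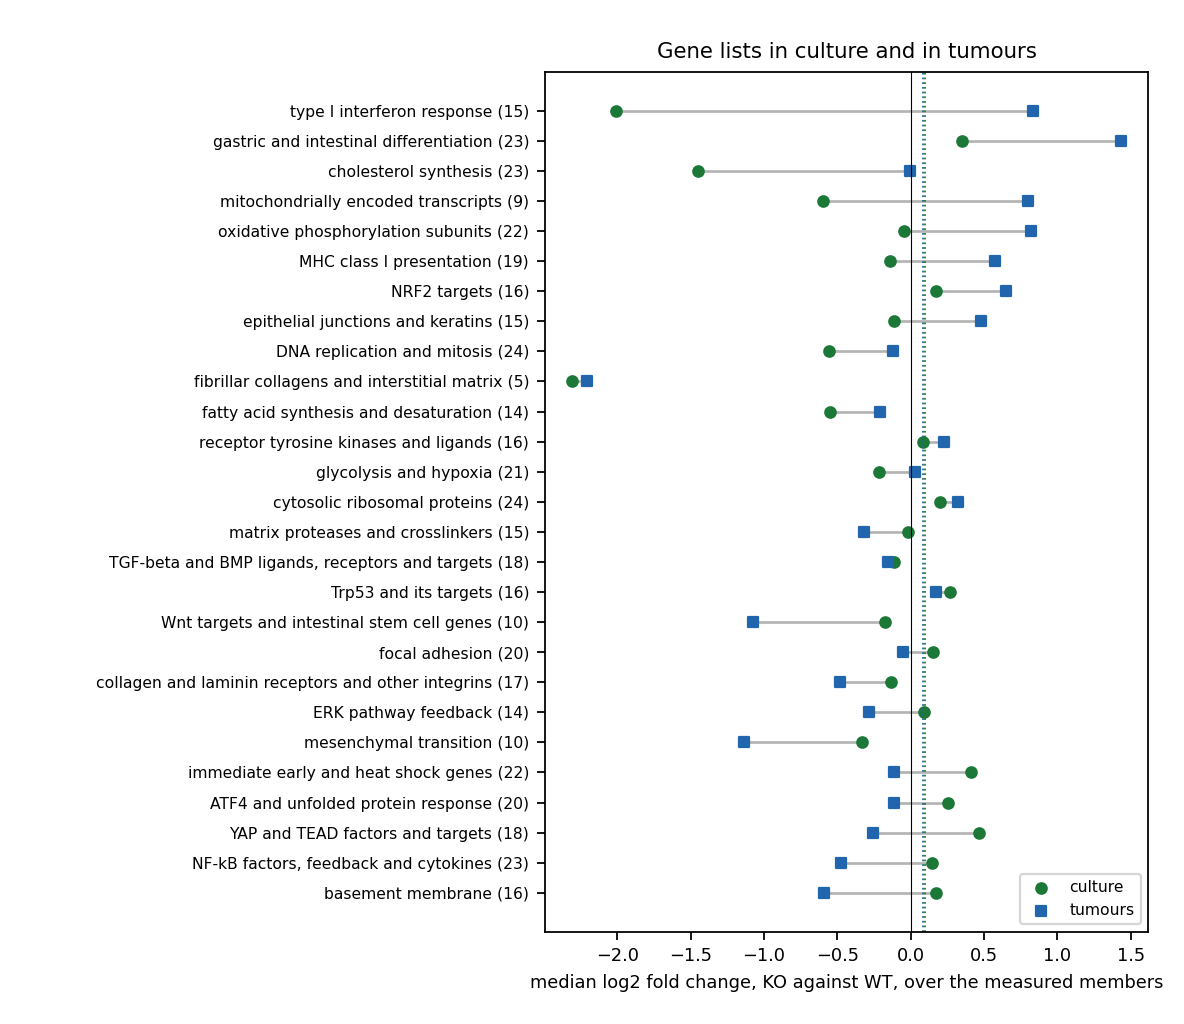
Median log2 fold change (KO against WT) of each gene list with 5 or more measured members, in culture (green circles) and in tumours (blue squares), ordered by the median difference, with the number of members in brackets and dotted lines at the medians of the 10660 genes. The interferon, cholesterol and mitochondrial lists lie to the left in culture and at or right of zero in tumours, while both points of the interstitial matrix list lie near -2.

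The 488 higher and 374 lower genes of the kept classes had no called difference, which does not show that their effects were equal. Bcas1, a gene first known from an amplified region in breast cancer (chr2:170346991-170427845, minus strand), had 1.08 and 0.907 CPM in WT and 44.8 and 45.2 CPM in KO cultures. In tumours Bcas1 had 1.87, 2.49 and 0.942 CPM in WT and 282 and 199 CPM in KO tumours. Bcas1 had fold changes of 5.49 ± 0.25 and 7.10 ± 0.36 and a difference of 1.61 ± 0.51 that was not called (edgeR adjusted p = 0.0972). Muc5ac, the main mucin of gastric surface cells (chr7:141788972-141819231, plus strand), had 0.381 and 0 CPM in WT and 23.9 and 15 CPM in KO cultures. In tumours Muc5ac had 0, 0.497 and 0.214 CPM in WT and 14.1 and 10.6 CPM in KO tumours. Muc5ac had a difference of -0.93 ± 1.26, which depends on the prior count since some WT libraries had no count (95% interval -3.71 to 1.84, edgeR adjusted p = 0.754). Gkn2, a secreted protein of gastric mucus cells, had 1.34 and 1.49 CPM in WT and 23.2 and 32.4 CPM in KO cultures. In tumours Gkn2 had 0.336, 1.24 and 2.91 CPM in WT and 597 and 23.1 CPM in KO tumours, where KO tumour 1 stood far above KO tumour 3. Its difference of 3.37 ± 1.80 had a 95% interval of -0.58 to 7.32, which allows both no difference and a large one. Mettl7b, Alpi (intestinal alkaline phosphatase) and Fhl1 (a LIM-domain protein) were the other upward genes, with differences of 1.70, 2.21 and -1.97 that were not called (edgeR adjusted p = 0.0822, 0.067 and 0.265). Fhl1 had 3 counts in the WT cultures and 204 in the KO cultures (ratio 65.9, 95% counting interval 22.2 to 322).

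On the lower side, Ace, angiotensin-converting enzyme (chr11:105967945-105989964, plus strand), had 28.2 and 22 CPM in WT and 0.113 and 0.139 CPM in KO cultures. In tumours Ace had 146, 150.0 and 188 CPM in WT and 0.937 and 1.62 CPM in KO tumours, so it was higher in WT tumours than in WT cultures and at 1.62 CPM or less in every KO library. The Ace difference was 0.61 ± 0.62 (95% interval -0.75 to 1.98). Kif21a, a kinesin (chr15:90933276-91049948, minus strand), had 232 counts in the WT cultures and 0 in the KO cultures, at least 79.8-fold lower. In tumours Kif21a had 21.2, 25.4 and 21.9 CPM in WT and 0.0586 and 0.216 CPM in KO tumours. Ddah1, which degrades methylated arginines, had 32.6 and 26.3 CPM in WT and 0.791 and 0.416 CPM in KO cultures. In tumours Ddah1 had 55.6, 55.8 and 62.8 CPM in WT and 0.761 and 1.51 CPM in KO tumours. The Ddah1 difference was -0.10 ± 0.51 (95% interval -1.21 to 1.01). Hook1, Sox11 and Nlrp10 were likewise at or under 1 CPM in every KO library and above 8 CPM in every WT library. Ace and Ddah1 were kept in all 22 alternatives. The kept classes numbered from 206 (without WT tumour 1) to 479 genes upward and from 214 (without WT tumour 2) to 405 downward, both highest without KO tumour 3, and leaving out WT tumour 1 or 2 gave the smallest numbers for both.

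Several lists held called effects within a setting and no called difference. In the list of DNA replication and mitosis 13 of 24 were lower in KO cultures and 3 in KO tumours, with medians of -0.56 and -0.12, and the difference was called for 0 (edgeR). Rrm2, a subunit of ribonucleotide reductase, had a difference of 1.71 ± 0.48 (95% interval 0.65 to 2.78, adjusted p = 0.0654), the smallest p of the list, with the KO tumours far apart at 133 and 341 CPM. The 20 genes of the ATF4 and unfolded protein response and the 24 cytosolic ribosomal proteins also had 0 called differences. The ribosomal proteins were higher in KO tumours for 7 of 24 and in KO cultures for 1, with medians of 0.32 and 0.20. A list without a called difference is not shown to have the same effect in both settings.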

How the data were processed

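The deposited values are whole-number counts per gene, 1 table for cultures and 1 for tumours, with 49671 Ensembl genes each. Per the labels' protocols, libraries were made with a UMI kit and deduplicated, and spike-in RNA was added. The authors used fastp 0.23.1 and STAR 2.5.2b, and featureCounts of Subread 1.5.2 on GRCm38, per the submitters' processing notes. For the annotation release, the strand setting and reads with several matches: not given in the sources used here. Deduplication lowers the share of PCR copies in the counts, and intervals on counts cover counting error only.

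From these counts edgeR 4.0.16 (R 4.3.3) tested genes that passed filterByExpr (minimum count 10, total 15), with TMM factors over the 9 libraries, quasi-likelihood F tests, prior count 0.125 and Benjamini-Hochberg adjustment over all genes tested. A call is an adjusted p of at most 0.05. Knockout effects were fitted within each setting, and the difference as the interaction in 1 fit of all 9 libraries. SE is the absolute log2 fold change over the square root of F. Symbols and positions are GENCODE M21 (GRCm38).

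Named genes are Itga2 and 3 partners, in each direction the largest differences of the reversed (8), tumour-only (6) and culture-only (3) classes, the 6 kept genes with the largest smaller effect, and up to 3 members with the smallest p in each list. Genes without a symbol of their own were passed over, and some named genes are not reported here. The members and lists were chosen with earlier results of these data known. The scripts were tested on simulated counts. Alternatives covered scaling, filters, DESeq2 1.42.0, limma 3.58.1, the CPM level, a replicate block and each library left out.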

Additional observations from a re-analysis of the deposited data

Results flagged for a closer look

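Each gene named with a called difference in its knockout effect between tumours and culture stands out because the difference itself was tested, as the interaction of knockout and setting in edgeR's quasi-likelihood fit of the 9 libraries. The values here are the knockout effect in tumours minus that in culture, as log2 fold changes, and the adjusted p-values, which run from 0.000238 to 0.0499, are edgeR values. The genes were named by the rule given with the processing, and they were chosen for small p-values or large differences.

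Of the genes reversed from lower in KO cultures to higher in KO tumours, those named were Tff3 (8.245), Oas1g (5.574), Ckmt1 (5.453), Slc4a11 (4.155), Pdk4 (4.096), Kif5c (4.028), Ces2c (3.464), mt-Nd2 (1.818), mt-Nd1 (1.758) and mt-Co1 (1.558). Of the genes reversed from higher in KO cultures to lower in KO tumours, those named were Lcn2 (-5.748), Aqp5 (-5.161), Dtna (-4.316), Ptprd (-4.016), Cftr (-3.295), Stc2 (-2.826), Nup210 (-2.3), Ccn1 (-2.231) and Lamb2 (-1.703). Of the genes called only in tumours as higher in KO, those named were Aldh1a1 (4.301), Cdkn2a (3.556), Tnxb (3.018), Cdkn2b (2.98), Galntl6 (2.915), Adh7 (2.9), Cox7b (1.878), Atp5o (1.117), Krt20 (1.961), Krt19 (1.486), Muc1 (1.663), Fgf1 (1.304), Gsta4 (1.527) and Gclm (0.9075). Of the genes called only in tumours as lower in KO, those named were B4galnt2 (-4.762), Bmp4 (-3.308), Cnksr2 (-3.262), Ltbp2 (-2.85), Ephb3 (-2.712), Ptgs2 (-2.678), Gdf15 (-1.684), Lamc1 (-1.42), Itga5 (-1.696), Mmp14 (-1.005), Znrf3 (-1.579), Tgfb3 (-2.153), Etv4 (-0.9528), Etv5 (-1.124) and Spry1 (-0.9362). Of the genes called only in culture as higher in KO, those named were Cxcl3 (-4.65), Slc10a2 (-3.234), Ccl20 (-3.199), Fermt1 (-0.9249), Yap1 (-0.8261), Egr1 (-2.979) and Fosl2 (-0.9528). Of the genes called only in culture as lower in KO, those named were Gng2 (8.755), Gatm (7.498), Ifi47 (6.095), Fdft1 (2.296), Fdps (2.101), Insig1 (2.206), Fads2 (1.6), Acss2 (1.607), Cox6c (0.9397), Ldha (1.077), Ifih1 (4.991), Oas1a (4.98), Psmb8 (5.119), Psmb9 (5.02), Tapbp (1.339), Lgals1 (0.9584), Vil1 (1.807) and Nqo1 (2.163). The genes with the same sign in both settings and a called difference were Col6a1 (2.01), Fermt2 (4.269), Mmp15 (2.061), Cldn7 (6.924), Ccn2 (-1.311) and Fgfr4 (-4.72). The edgeR adjusted p-values of differences not given above were 0.00573 for Gdf15, 0.0226 for Mmp14, 0.0374 for Znrf3, 0.018 for Tgfb3, 0.0192 for Fermt1, 0.0214 for Ldha, 0.045 for Lgals1, 0.00565 for Fermt2, 0.00297 for Gng2, 0.00383 for Gatm and 0.00876 for Cldn7. The fitted values of Gng2, Gatm, Cldn7 and Fermt2 rest on groups with 0 to 2 counts in KO cultures and depend on the prior count. Those of Aqp5 and Fgfr4 rest on few reads in KO tumours.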

How the results depend on the processing

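The counts of genes moved more with single libraries than with most other choices. With 1 library left out at a time, called differences numbered 227 at the least (KO culture 1 left out) and 1120 at the most (KO tumour 3 left out) upward, against 694. Downward they numbered 42 (WT culture 2 left out) to 498 (KO tumour 3 left out), against 254. Calls ran from 2204 to 3554 in culture and from 1248 to 4069 in tumours. Over the same settings the classes ran from 24 to 106 and from 8 to 35 (reversed upward and downward), 45 to 382 and 20 to 203 (only in tumours, higher and lower), 4 to 115 and 78 to 280 (only in culture), and 206 to 479 and 214 to 405 (kept). A setting that leaves an arm with 1 library assumes that it varies like the other groups. Scaling by library totals gave 38 genes higher only in culture and 266 kept higher. Without a filter the differences numbered 1308 upward and 567 downward, the tumour-only genes 277 and 177, and the culture-only genes 147 and 351. DESeq2 gave 1063 and 562 differences, 268 and 227 tumour-only genes, and 144 culture-only genes higher in KO. At 1 CPM 583 genes were kept lower, and at 20 CPM 42 reversed upward, 132 were lower only in culture and 207 kept lower. The replicate number as a block could be fitted in culture only, where samples share a number and no stated pairing. It gave 7767 calls in culture, reversed classes of 143 and 94, tumour-only classes of 71 and 54, 149 culture-only higher and 868 kept higher genes. The tumour-only classes shared 52 of 147 and 26 of 97 genes with those without the block, and 9 of the 12 tumour-only genes named for their differences left the class. With 2 pairs, the deviations of same-numbered cultures correlated at 0.679. Every count stayed within 1.5 times under RLE size factors, TMM within each setting, the CPM filter, limma-voom and 1 joint fit. So it did with a fold of 1.5 and with TMM over genes at 5 CPM in culture, the last chosen after seeing the data. Membership could still move: 1 joint fit shared 45 of the 67 genes reversed upward and 22 of the 28 reversed downward. Ckmt1, Kif5c, Ces2c, Lcn2 and Stc2 left the reversed classes in that fit. Of 119 results for named genes none changed direction in any setting, and calls were lost for 8 with library totals, 9 with limma-voom, 3 with the block, and from 1 (without KO tumour 3) to 31 (without KO culture 1). At 16032912 to 21247023 counts a library, genes under a few counts in a group have no usable fold change.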
